A study of Canis lupus familiaris with 6 samples.

Results

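The miRNAs cfa-miR-10b, cfa-miR-99a, cfa-miR-99b, cfa-miR-125a and cfa-miR-125b (written without the species prefix from here on) belong to the miR-10, miR-99 and miR-125 families and were followed in sorted fractions of canine mammary cancer cell lines. They were picked by name from the array's own annotation and are 5 of its 289 canine miRNAs. Each was read by 2 probes of 20 spots, so the 5 miRNAs took 10 of 656 probes and 200 of 11560 spots on every array. 3 lines (CMT-U27, CMT-U309, P114) had each been split by flow cytometry, with an antibody to Sca1 (stem cell antigen 1, a surface marker used to enrich stem and progenitor cells), into a Sca1+ fraction, which the labels take as cancer stem cells, and a Sca1- control fraction. Each line gave 1 sample per fraction, hence 3 samples per fraction, 2 per line and 6 arrays of total RNA on 1 slide. All lines were kept in RPMI-1640 medium with fetal bovine serum, and no genotype, drug or time point separated the samples. The descriptions of both P114 samples mention culture with macrophages and those of the other 4 samples culture alone, a point the sample titles leave out.

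3 bright arrays carry most of what follows. Named B1, B2 and B3, each detected over 50 miRNAs (111, 91 and 89). The dim arrays D1, D2 and D3 detected 39, 22 and 9, and their summed signals were 3228, 1277 and 319.5 units against 69282 to 70794 on the bright arrays. The scanner files and the series' value table disagree on which sample 4 of the 6 arrays hold. B1 was Sca1+ and B2 and B3 were Sca1- in both sources. B1 shared its line with B2 by scanner file (CMT-U309) and with B3 by value table (P114), so in either source 1 of the Sca1- bright arrays was its partner from the same line. D1 was the Sca1+ fraction of CMT-U27 in both sources. D2 was Sca1- of CMT-U27 by scanner file and Sca1+ of CMT-U309 by value table, and D3 was Sca1+ of P114 or Sca1- of CMT-U309. Among the marker miRNAs of cell types, B1 detected 5 of 7 epithelial ones (summed signal 5129), while B2 detected 1 (28.9), B3 and D1 none, D2 1 (23.9) and D3 none. The epithelial markers were therefore near or below detection on 5 of the 6 arrays of these mammary cancer cells.

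miRNAs are short RNAs that pair through their seed, a few bases near the 5′ end, with messenger RNAs and lower their translation and stability. The miR-10 and miR-99 families descend from a common ancestor and their mature forms differ in only a few bases, while miR-99a and miR-99b share one seed and miR-125a and miR-125b share another. A miR-99 gene, a let-7 gene and a miR-125 gene lie together in a cluster that was duplicated in vertebrates, so the paralogues come from separate loci. miR-10b lies among the HOXD genes and is known for its role in the invasion of breast cancer cells. miR-125b is the vertebrate homologue of lin-4 and acts in stem cells, and miR-99 miRNAs are known to target mTOR.

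The array probes of the paralogues were set side by side. Probes are antisense to the miRNA. The longer of the 2 probes of each paralogue is printed, aligned without gaps. Capitals mark letters that differ between the partners or lie outside their overlap.
miR-99a: AcaagAtcggAtctaCGG
miR-99b: CGcaagGtcggTtcta
miR-125b: TcaCAAGTTagggtctc
miR-125a: AcaGGTTAAagggtctc
The miR-99a and miR-99b probes were identical at 12 of 15 aligned letters, and the substitutions from miR-99a to miR-99b were A1G, A6G and A11T, counted from 1 at the 5′ end of the miR-99a probe. Without gaps, the miR-125b and miR-125a probes were identical at 10 of 17 letters, with a longest shared run of 8 letters. The 7 mismatches of this alignment lay at positions 1 and 4 to 9 of the miR-125b probe. A gap would bring more letters of this pair into match. The count of 7 is therefore not read as how far these 2 probes can be told apart. miR-10b is set beside the array's miR-10, which is miR-10a by its RefSeq synonym and is the nearest probe among the related miRNAs.
miR-10b: ACacaaattcggTtctacaggG
miR-10: acaaattcggAtctacagg
These were identical at 18 of 19 aligned letters and differed by T13A in the miR-10b probe. miR-10 was detected on no array, including the 3 that detected miR-10b, and miR-99b was not detected on B1, where miR-99a was. Signal on one probe of each such pair was therefore not accompanied by a detected signal on its near copy.

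The shorter probe of each miRNA lacks 1 letter at its 3′ end, which is capitalised in these longer probes of the miRNAs from the chromosome 1 cluster, described first among the values.
miR-99b: cgcaaggtcggttctA
miR-125a: acaggttaaagggtctC
let-7e: aactatacaacctcctacC
On chromosome 1 the files place the miR-125a probe at chr1:108280396-108280411, the let-7e probe at chr1:108280861-108280878 and the miR-99b probe at chr1:108281049-108281063 (canFam2; strand not given in the files). The 3 probes span 668 bp. RefSeq (a later assembly, used for names alone) places the miR-99b gene inside a long non-coding RNA and lists SPACA6 beside the miR-125a and let-7e genes.

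The paralogues had 2 loci each, which the probes could not separate. The miR-99a probe matched chr5:15052372-15052389 and chr31:16268332-16268349, and the miR-125b probe matched chr5:15102677-15102693 and chr31:16314532-16314548 in the same build. let-7a lay between them on chromosome 5, in a span of 50.3 kb, and let-7c between them on chromosome 31, in a span of 46.2 kb. RefSeq places the chromosome 31 copies inside a long non-coding RNA, the chromosome 5 copy of miR-99a within the protein-coding gene BLID, and that of miR-125b within long non-coding RNAs. The miR-10b probe lay at chr36:22985954-22985974, and its RefSeq neighbours are HOXD8 and HOXD3.

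The chromosome 1 miRNAs were low or undetected in the Sca1+ fraction of B1. miR-99a and miR-125b, the paralogues of miR-99b and miR-125a, were detected on all 3 bright arrays, with signals given further on. miR-99b gave no detected signal on B1, and its total gene signal was 80.3 ± 9.99 on B2 and 57.4 ± 7.44 on B3 (Feature Extraction's own error over spots, as for all signals that follow). Likewise undetected on B1, miR-125a reached 31.8 ± 6.53 units on B2 and 17.8 ± 4.65 on B3. Both Sca1- arrays thus detected the pair and the Sca1+ array detected neither. let-7e, the member of the let-7 family encoded between them, had 50.7 ± 6.35 on B1, 206 ± 16.7 on B2 and 292 ± 21.8 on B3. It was measured on all 3 arrays, and B1 lay below both others by more than these errors.

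miR-99a and miR-125b, the paralogues from chromosomes 5 and 31, were detected on all 3 bright arrays. miR-99a had 193 ± 18.8 on B1, 234 ± 24.1 on B2 and 199 ± 19.6 on B3. Neighbours in this order, B2, B3 and B1, were within their errors of each other. miR-125b had 1412 ± 121 on B1, 1276 ± 111 on B2 and 1148 ± 103 on B3, which was 2.04%, 1.80% and 1.64% of the summed signal of each array. Here too neighbours in the order did not differ beyond their errors, but its ends, B1 and B3, did before scaling. miR-10b had 114.4 ± 10.73 on B1, 82.2 ± 10.4 on B2 and 49.7 ± 6.58 on B3. Each step of that order exceeded the errors before scaling. The B2 total held both probes (18.8 and 63.4 units), while the B3 total was that of the longer probe alone. Relative to the array's scaling point, the longer probe was level on B2 and B3, at log2 values of -2.52 and -2.53. Total gene signal after scaling was not level, at -2.42 on B2 and -3.21 on B3. Signals of the 5 miRNAs come from different probes, so no order among the 5 is read from them.

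**Figure D1:**
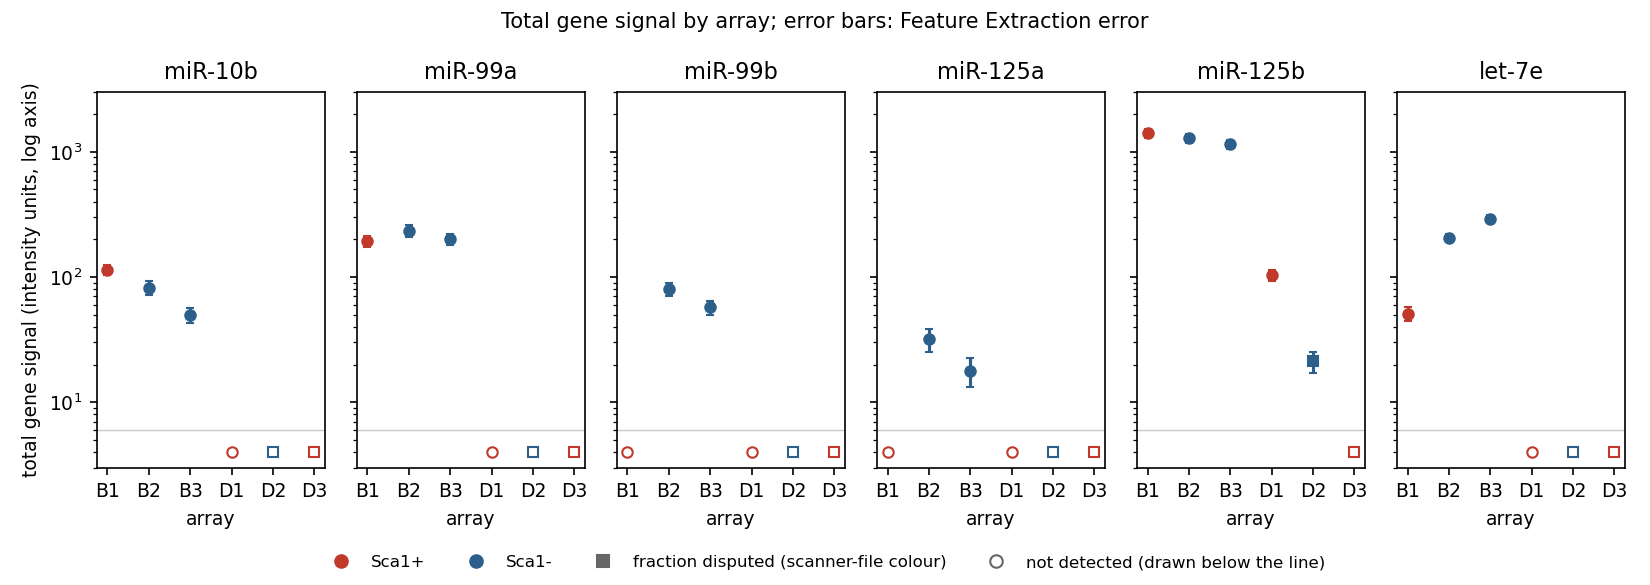
Total gene signal (intensity units, log axis) of the 5 miRNAs and of let-7e on each array, with Feature Extraction's error as bars. Red is Sca1+ and blue Sca1-, squares are arrays whose fraction differs between sources (coloured by scanner file), and open symbols below the grey line are arrays on which the miRNA was not detected, as miR-99b and miR-125a were not on B1.

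In single spots the separation of miR-99b was complete on both probes. On the longer probe the spots of B1 ran from -1.57 to 7.82 units of processed signal and those of B2 and B3 from 22.0 to 45.9. On the shorter probe they ran from -5.70 to 2.97 and from 11.2 to 29.1. No spot of the longer probe was well above background on B1 (0 of 19), against 20 of 20 on B2 and 18 of 18 on B3. let-7e separated in the same way, with 16.8 to 27.8 units on B1 and 69.2 to 138 on B2 and B3 for the longer probe. Spots are repeats of one hybridization, so this separation describes these arrays and not the conditions.

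miR-125a was close to the limit of the array. Its longer probe had spots from 3.35 to 10.1 units on B1 and from 8.05 to 28.9 on B2 and B3, and these ranges overlapped. Spots well above background numbered 0 of 19 on B1, 15 of 17 on B2 and 3 of 18 on B3. The shorter probe had none on any array, with means of -2.76, 5.43 and -2.70 units on B1, B2 and B3, so that its B3 value was at the level of B1. The longer probe separated B1 from B3 less clearly than from B2, with means of 5.95, 23.7 and 13.0 units.

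The spots of miR-99a and miR-125b overlapped between B1 and the other bright arrays on both probes. For miR-99a the longer probe ran from 121 to 145 units on B1 and from 126 to 192 on B2 and B3, and for miR-125b from 801 to 965 and from 664 to 906. The coefficient of variation over the spots of the longer probe was 3.77% to 5.56% for miR-99a and 5.35% to 7.51% for miR-125b. It was 11.5% and 11.4% for miR-99b on B2 and B3, and 11.8% and 21.1% for miR-125a. Spots of miR-99b and miR-125a thus varied more, relative to their means, than those of their paralogues. miR-10b had spots from 57.7 to 78.5 units on B1, above the 30.4 to 54.8 of B2 and B3 on the longer probe, while on the shorter probe the ranges overlapped.

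**Figure D2:**
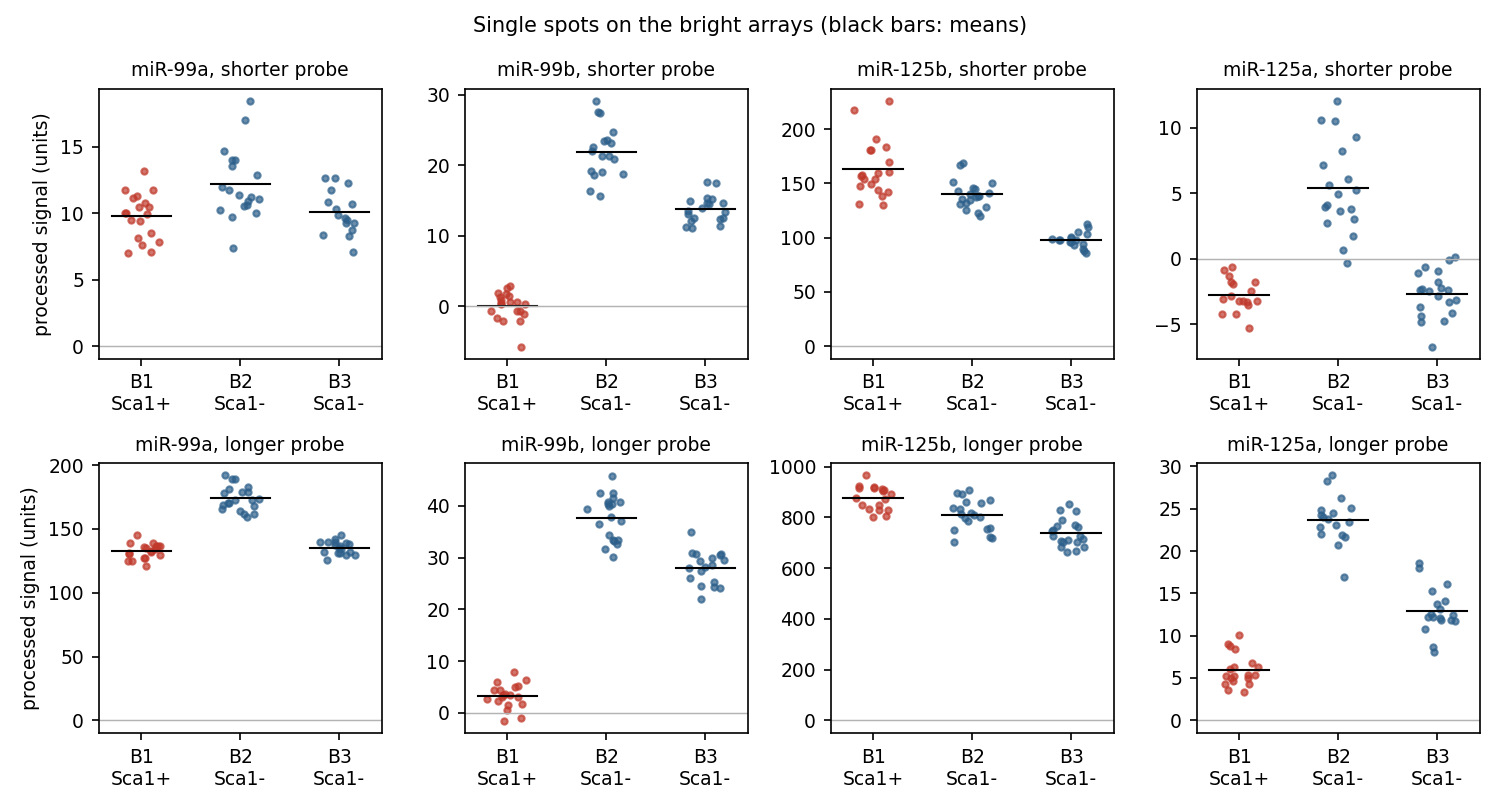
Processed signal (intensity units, linear axis, own scale per panel) of every used spot of the shorter and longer probe on the 3 bright arrays, with bars at the means. Spots of miR-99b lie apart on B1 (at most 7.82 units on the longer probe against at least 22.0), those of miR-99a and miR-125b overlap, and those of miR-125a overlap near 0.

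Sca1+ and Sca1- cells were compared on the bright arrays with limma, as B1 against B2 and B3 (n = 1 and 2) on scaled log2 values of the probe with the highest mean. With 1 residual degree of freedom the test assumes that the single Sca1+ array varies as the Sca1- arrays do. Line was left out of this fit, so the pairing of B1 with a Sca1- array was not used. The residual spread is that between B2 and B3, which came from different lines in both sources. limma moderates this spread towards a value shared by all tested miRNAs. The SE and p-value of a miRNA thus do not measure its own spread between B2 and B3 alone. The samples are biological replicates by their labels, which do not say how cultures were kept apart, so p-values measure the spread between these samples alone. Of 90 miRNAs tested, 4 were lower on B1 (4.44%) and 0 higher at an adjusted p of 0.05. Of the 5 miRNAs, miR-99b was among the 4 and the other 4 did not pass. miR-99b met the filter of detection on 2 bright arrays through the Sca1- arrays alone, where it is high, so its call is given as a description of these 3 arrays and not as support. Because it was at background on B1, its size is a bound, taken against the lowest probe well above background there. It was at least 3.16-fold lower on B1 and below both Sca1- arrays. The fitted log2 difference, which is not exact, was -4.64 (SE 0.28, adjusted p = 0.0112 with limma). Against each Sca1- array alone the bound was 3.22-fold for B2 and 3.10-fold for B3, and it ran from 2.53 to 4.34 over 4 ways of scaling the arrays. The adjusted p ran from 2.17e-08 to 0.398 over the 8 alternatives and missed 0.05 with quantile scaling (0.0627), with all 289 miRNAs tested (0.398) and with normexp background, which turned the sign and is described further on.

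miR-125a was at least 1.69-fold lower on B1, below both other arrays, and did not pass (adjusted p = 0.0905 with limma, fitted log2 difference -1.92, SE 0.37). The bound ran from 1.35 to 2.32 over the scalings, and against B3 without scaling it came to 0.992, which is no decrease. Figures that use B3 are not strict bounds. On that array miR-125a itself lay below the lowest probe well above background (log2 -4.03 against -3.72 after scaling). It too entered the fit through the Sca1- arrays alone, and its adjusted p from limma, 0.0178 with scaling over all probes, is likewise a description. let-7e was 5.83-fold lower (log2 -2.54, SE 0.51) on B1, alike on both probes (-2.70 and -2.54), with the same adjusted p from limma (0.0905). It passed with scaling over all probes (adjusted p = 0.00158) and among miRNAs detected on every bright array (0.0117), both with limma.

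miR-99a differed by -0.53 (SE 0.28, adjusted p = 0.323 with limma), or 1.45-fold, with log2 differences of -0.50 on the shorter and -0.53 on the longer probe. It was below 0 under all 4 scalings, from -0.99 to -0.21. miR-125b differed by -0.14 (SE 0.30, adjusted p = 0.777 with limma), and its probes had opposite signs (0.15 shorter, -0.14 longer). Its sign depended on the scaling, with 3 of 4 below 0. miR-10b differed by 0.37 (SE 0.28, adjusted p = 0.413 with limma), or 1.29-fold, alike on its probes (0.41 and 0.37), and was above 0 under 2 scalings and below under the other 2. It passed with normexp background alone among the alternatives tested. The let-7 partners from chromosomes 5 and 31 had values of 0.18 (let-7a) and 0.64 (let-7c), neither of which passed.

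The sign of most of these values has to be read against the whole array. B1 was below both Sca1- arrays for 4 of the 5 miRNAs, all but miR-10b, and for 33 of 90 miRNAs tested (36.7%). It was above both for miR-10b and for 46 of 90 (51.1%). The median log2 difference of the 5 was -0.53 against 0.18 for all 90, and 4 of 5 and 40 of 90 (44.4%) were below 0. The median of all 90 itself moved with the scaling, to -0.28 with scaling over all probes, 0.50 without scaling and -0.04 with quantile scaling. Detection on both Sca1- arrays but not on B1 was seen for 2 of the 5, miR-99b and miR-125a, and for 4 of the 123 miRNAs detected on at least 1 bright array (3.25%). All 5 met the filter of detection on at least 2 bright arrays, miR-99b and miR-125a through the Sca1- arrays alone, so these counts and medians are descriptions.

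**Figure D3:**
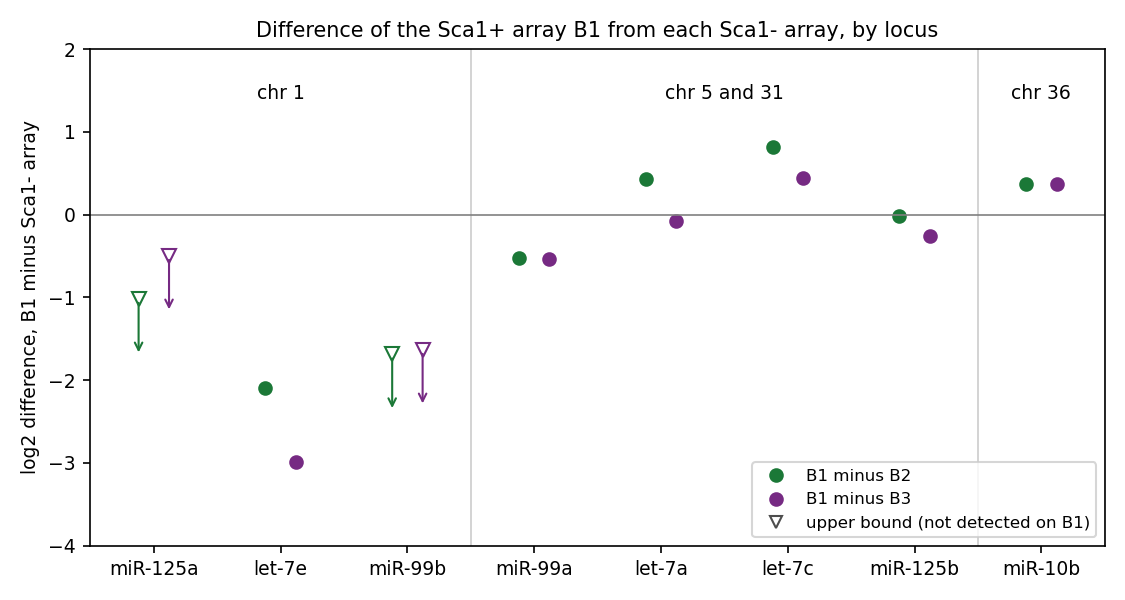
Scaled log2 difference of the Sca1+ array B1 from each Sca1- array, by chromosome of the locus. Open triangles with arrows are upper bounds for miR-125a and miR-99b, not detected on B1. The miR-125a bound against B3 is not strict, because its B3 value was also below that array's limit. The chromosome 1 miRNAs lie at or below -0.49 and those of chromosomes 5, 31 and 36 between -0.54 and 0.82.

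Paralogues were contrasted within arrays, where scaling by 1 factor per array cancels, and since the 2 probes have different brightness only the change of their difference between arrays is read. The log2 difference of miR-99a from miR-99b was 6.35 on B1, 2.21 on B2 and 2.28 on B3. The value on B1 is set by a miR-99b signal at background and is not exact. With miR-99b at its bound the ratio of miR-99a to miR-99b was at least 2.18-fold higher on B1. The log2 difference of miR-125a from miR-125b was -7.27 on B1, -5.10 on B2 and -5.86 on B3. The value on B1 is again not exact. With miR-125a at its bound on B1 the ratio of miR-125a to miR-125b was 1.53-fold lower there. This is not a strict bound, since miR-125a on B3 was also below that array's limit (log2 -4.03 against -3.72). The exact permutation test of 1 array against 2 gave p = 0.333 for both pairs (two-sided), the smallest it can give, so neither pair could reach 0.05 and no adjustment over the 2 pairs changes that.

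The background subtraction changed the direction for the faint paralogues. With normexp on the raw and local background signals, the log2 differences on B1 became 0.55 for miR-99b (adjusted p = 0.0711 with limma) and 0.80 for miR-125a (adjusted p = 0.0121), that is, higher on B1. miR-10b passed as higher on B1 under this setting (0.70, adjusted p = 0.0206 with limma). let-7e came to -0.15 and miR-99a to -0.08. The median of all 90 miRNAs was itself 0.55 with normexp, and 67 of 90 (74.4%) were above 0. The value of miR-99b was therefore level with that of the typical miRNA under this setting. Under this setting 43 of 90 miRNAs were called higher and 11 lower, against 0 and 4 in the fit above. The local background that normexp subtracts had a median of 24 or 25 units on the bright arrays, whereas Feature Extraction had subtracted 63.5 on B1, 69.8 on B2 and 64.4 on B3. On the scale of Feature Extraction's processed signal, the spots of miR-99b on B1 were centred near 0 (means 3.27 and 0.06).

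**Figure D4:**
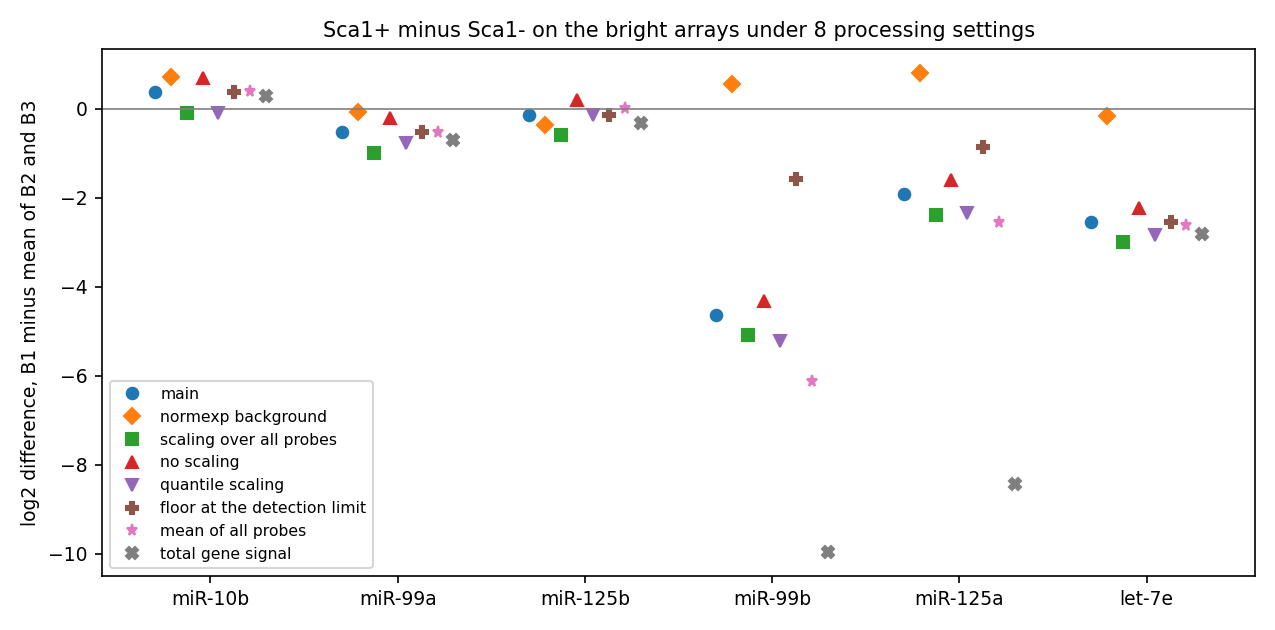
Log2 difference of B1 from the mean of B2 and B3 for the 5 miRNAs and let-7e under 8 settings. miR-99b and miR-125a are below 0 under 7 of them and above 0 with normexp background (0.55 and 0.80); their sizes are not exact where B1 is at background. miR-10b and miR-125b lie on both sides of 0.

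Other marker miRNAs differed between the same arrays. Leukocyte markers had a summed signal of 948 on B1 (3 of 5 detected), 219 on B2 and 149 on B3 (2 of 5 each), with miR-142 and miR-150 detected on none. Mesenchymal and stromal markers had 19.9 on B1 (1 of 5), 635 on B2 and 623 on B3 (2 of 5 each), with miR-214, miR-143 and miR-145 detected on none. Epithelial markers ran the other way, as given above, with miR-200a and miR-200b undetected throughout. The endothelial miR-126 and the 4 muscle miRNAs were detected on no array, and of the erythroid ones miR-451 alone was, at 18.1 on B2 and 39.4 on D2. The part of these markers in the results for miR-99b, miR-125a and let-7e was not tested, and fewer cells of a type and less RNA per cell cannot be told apart in bulk RNA.

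On the dim arrays miR-125b was the one member of the 5 still detected. Its signal was 103 ± 10.1 on D1 and 21.3 ± 4.11 on D2, and D3 did not detect it. These signals were 3.20% and 1.67% of the summed signal of D1 and D2, beside the 1.64% to 2.04% of the bright arrays. At the shares seen on the bright arrays it would have given 52.8 to 65.8 units on D1 and 5.23 to 6.51 on D3, where the faintest detected miRNA had 12.6. At such a share miR-125b would have been fainter than any miRNA detected on D3. On D1 its signal was above the range from these shares, and on D2 within it (20.9 to 26.0). Such shares are therefore a rough guide. The faintest detected miRNA is also not the detection rule itself, which uses 3 times the error.

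The other 4 were undetected on all dim arrays. At its bright-array shares miR-99a would have given 8.99 to 10.7 units on D1, where the faintest detected miRNA had 10.4, and less than the faintest detected on D2 and D3. miR-10b would have given at most 5.33 on D1, miR-99b at most 3.66 and miR-125a at most 1.45. At these shares miR-10b, miR-99b and miR-125a would have been fainter than the faintest miRNA detected on each dim array. miR-99a would have exceeded it only at the top of its range on D1. Leukocyte signal on the dim arrays came from miR-223 alone (59.6 to 65.7 units), and no mesenchymal marker was detected there.

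Over all 6 arrays, with the line as a block, 0 of 80 miRNAs passed (0%) and 0 had an unadjusted p under 0.05 with limma. The number that passed was also 0 with arrays assigned by value table, where 3 had an unadjusted p under 0.05. miR-10b, miR-99a and miR-125b were detected on at least 3 arrays and were tested, while miR-99b and miR-125a were not. Their log2 differences were -1.90 (SE 1.77), -3.54 (SE 2.04) and -1.12 (SE 1.74), each with an adjusted p of 0.995 with limma (n = 3 pairs). All 3 were undetected on at least 1 array, so these sizes are not exact. 63 of 80 miRNAs (78.75%) were below 0 with a median of -0.81, so the direction of the 3 was that of most miRNAs in this fit. The balance turned with other settings, to 64 of 80 above 0 (median 0.60) with normexp background and 52 of 80 (median 0.31) with a floor at the detection limit. By value table miR-125b turned to 0.33, and miR-10b and miR-99a had -1.54 and -0.34 (adjusted p = 0.945, 0.826 and 0.945 with limma). The paralogue contrasts over 3 lines gave exact permutation p = 1 for miR-99 and 0.25 for miR-125, the latter the smallest possible, with no exact sizes.

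Within lines, miR-125b could be measured on both sides in 2 of 3 lines. By scanner file its scaled log2 difference, Sca1+ minus Sca1-, was 0.20 in CMT-U27 (D1 and D2) and -0.58 in CMT-U309 (B1 and B2). By value table it was -0.90 in CMT-U27 (D1 and B2) and -0.28 in P114 (B1 and B3). The CMT-U27 value by scanner file rested on 2 dim arrays and ran from -0.50 to 2.25 over 8 settings. miR-99a and miR-10b had measured pairs in 1 line. On the scaling shared by all arrays they had -1.09 and -0.19 in CMT-U309 by scanner file. By value table they had -0.57 and 0.35 in P114. Scaled over the bright arrays alone, the CMT-U309 values (B1 minus B2) were -0.53 for miR-99a and 0.37 for miR-10b. The P114 values (B1 minus B3) were then -0.54 and 0.38. The sign of miR-10b in CMT-U309 therefore depended on the scaling, and its direction in that line is not read. Lines themselves were compared in the fit over all arrays, and 0 of 80 miRNAs differed among them (0%, 4 at an unadjusted p under 0.05 with limma). The adjusted p was 0.888 for miR-10b and miR-99a and 0.901 for miR-125b with limma. With arrays assigned by value table, 14 miRNAs passed for lines, and none of the 3 was among them (adjusted p = 0.598, 0.388 and 0.507 with limma). In that assignment both CMT-U309 arrays were dim and both P114 arrays bright. By scanner file both CMT-U27 arrays were dim and both CMT-U309 arrays bright. A difference among lines thus cannot be told apart from one in array brightness.

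The related miRNAs comprised miR-10a and miR-100, which belong to the same families, the let-7 partners of the clusters and the HOX-cluster miRNAs miR-196a, miR-196b and miR-615. Of these, 7 were matched on the array and 3 (let-7a, let-7c and let-7e) were tested, with 0 higher and 0 lower in either comparison of fractions. miR-100 was not analysed here. miR-10, miR-196a, miR-196b and miR-615 were detected on no array, so miR-10b was the HOX-cluster miRNA of this list that gave signal. let-7a had 4537, 3025 and 3389 units on B1, B2 and B3 and 126, 53.1 and 28.5 on D1, D2 and D3. let-7c had 999, 493 and 487 on the bright arrays and 11.9 and 16.3 on D1 and D2, and was not detected on D3. Before scaling, both let-7 miRNAs of chromosomes 5 and 31 were thus highest on B1, the array on which let-7e of chromosome 1 was lowest of the bright ones. let-7a also has a locus on chromosome 10 that its probe cannot separate.

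Likeness was measured by the root mean square difference of scaled log2 values, centred per miRNA, among miRNAs detected on the same arrays. miR-10b was most like miR-7, miR-30c and miR-18a (0.05, 0.10 and 0.11, over 3 arrays and 36 other miRNAs). miR-7 had 102, 53.0 and 44.8 units on B1, B2 and B3. miR-99a was most like miR-324, miR-26b and miR-24 (0.07, 0.11 and 0.16), and miR-324 had 39.6, 43.3 and 35.6. miR-125b was most like miR-29a, miR-27a and miR-23b (0.36, 0.60 and 0.67, over 5 arrays and 6 other miRNAs). The miR-125b likeness was looser than the first 2, and miR-29a had 865, 1314 and 1069 units on B1 to B3, 126 on D1 and 11.2 on D2. miR-99b and miR-125a shared their pattern, detection on B2 and B3 alone, with miR-199 (245 and 193 units) and miR-204 (26.9 and 57.0 units).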

How the data were processed

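Total RNA of 6 samples was measured on 1-colour Agilent miRNA arrays. The deposited scanner files hold spot intensity from Feature Extraction (10.10.1.1 per the file headers, 10.7.3.1 per the submitters' processing notes), background-subtracted and not scaled between arrays, plus a total gene signal per miRNA, given as 0.1 where not detected (not above 3 times its error). The labels name Cy5, while the files hold 1 green channel. The deposited value table repeats this intensity for 311 features. 2 of its columns equal the scanner file of the same sample and 4 that of another (relative tolerance 0.0001). Neither source could be settled, and fits followed the scanner files.

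Control and outlier-flagged spots (82 of 1200 spots of the 5 miRNAs) were left out, leaving 16 to 20 per probe. Processed signals at or below 0 were set to the array's lowest positive value, log2 was taken, spots were averaged, and the 75th percentile over probes well above background on all arrays of the fit was subtracted (10 probes of 6 miRNAs, or 122 probes for the bright arrays). The probe with the highest mean stood for its miRNA. Detection on at least 3 of 6 arrays, or 2 of the 3 bright ones, was required for a test. Tests used limma 3.58.1 (R 4.3.3), with Benjamini-Hochberg adjustment at 0.05. The 6-array fit was first tried on simulated data with less spread than these arrays have. The bright-array fit was not simulated. A bound uses the higher of the dim probe's own value and the lowest probe well above background.

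The line pairs the fractions, because both were sorted from it; deviations from group means correlated at -0.16, 0.58 and -0.54 in CMT-U27, CMT-U309 and P114 over 80 miRNAs. Tables were prepared with Python 3.11.15 and pandas 2.3.3. Alternatives were normexp (offset 50), other scalings, floors, probe rules and filters, the value table, the fit with no line block and each array left out. The 5 miRNAs, the related and marker lists, the bright limit and the tests were chosen with earlier results of these data known. The genes named are the 5, the related list and the 3 most alike by detection pattern and scaled values.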

Additional observations from a re-analysis of the deposited data

Results flagged for a closer look

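miR-125b and let-7c had opposite signs in the 2 lines in which both fractions were measured by scanner file. miR-125b had a Sca1+ minus Sca1- log2 difference of 0.20 in CMT-U27 and -0.58 in CMT-U309, and let-7c one of -2.38 in CMT-U27 and 0.26 in CMT-U309. Scaled over the bright arrays alone, the CMT-U309 value of miR-125b (B1 minus B2) was -0.018, and without scaling it was 0.12. The sign of miR-125b in CMT-U309 therefore depended on the scaling. Each line gave 1 pair, so the difference between lines was not tested. The CMT-U27 pair were dim arrays and the CMT-U309 pair bright ones, and by value table these arrays do not form the same pairs.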

How the results depend on the processing

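On the bright arrays, 4 miRNAs passed, against 54 with normexp background, 10 with a floor at the detection limit, 11 with scaling over all probes, 8 among miRNAs detected on every bright array, 2 with the mean of all probes, and 0 with quantile scaling and with all miRNAs tested (29 and 32 at an unadjusted p under 0.05 with limma). Signs turned with normexp for miR-99b (0.55), miR-125a (0.80), let-7a (-0.17) and the paralogue contrasts (-0.63 for miR-99, 1.17 for miR-125), with scaling over all probes for miR-10b (-0.086) and let-7a (-0.28), with quantile scaling for miR-10b (-0.088), without scaling for miR-125b (0.18), with the mean of all probes for miR-125b (0.0069), with total gene signal for let-7a (-0.049), and without B2 for let-7a (-0.019 to 0.22 over both arrays left out). Without B2 or B3, the contrasts, which have no test then, were 4.07 to 4.14 for miR-99 and -2.17 to -1.41 for miR-125. These ranges show no stability, since both omissions keep B1, where miR-99b and miR-125a were at background. The miR-99 contrast was 1.05 with the floor and 9.24 with total gene signal.

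Over all arrays, the count for fractions was 0 throughout, also with no replicate block (0) and with each array left out (0 to 0). For lines it was 1 with total gene signal, 14 by value table, 20 with the value table's intensities, and 0 to 7 with each array left out (7 without D3). Lines also differed in array brightness by value table and by scanner file without D3. These counts are therefore not read as differences among lines. Signs turned with normexp for miR-10b (0.83), miR-99a (0.22), let-7c (0.19), let-7e (0.34) and the miR-125 contrast (1.18), with the floor for miR-10b (0.66) and the miR-125 contrast (0.82), by value table for miR-125b (0.33), with its intensities for miR-125b (2.55) and let-7c (2.09), and without D1 or D2 for let-7c (-1.06 to 0.27). The miR-99 contrast was -0.21, against 0.65 with the mean of all probes, 2.52 with total gene signal and with the value table's intensities, 4.40 by value table and -2.39 to 1.36 with each array left out (-4.45 to -2.33 for miR-125). The line block changed no call. The cause of these changes was not tested. miR-99b and miR-125a were near background on B1, and 4 of the 5 miRNAs were undetected on all dim arrays, so their sizes there are not exact.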
